A study of Mus musculus with 9 samples.

Results

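Iron regulation in the liver was followed through 10 named genes: Hamp, Tf, Tfrc, Tfr2, Slc40a1, Fth1, Ftl1, Bmp6, Id1 and Smad7. They were looked up by symbol among the 19686 genes of the count table, and 9 of the 10 had a row. Fth1 was not matched and is not analysed here. Hepatic RNA came from 9 male Wistar rats. The 3 control rats drank purified water and received saline by gavage. The 3 model rats drank 15% fructose and received saline. The 3 DSS rats drank 15% fructose and received an extract of Danggui-Shaoyao-San, a herbal formula. The methods take only the 50% methanol extract, at 1.8 g/kg, to gene expression, so the DSS label was read as that extract. Treatment lasted 8 weeks, and all rats were fasted for 12 h before the liver was taken. The labels give the mouse as organism and the Wistar rat as strain. Gene identifiers carry the rat prefix, and the libraries were read as rat, 1 animal each.

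Hepcidin, the product of Hamp, is a hormone that hepatocytes secrete. It binds ferroportin, the iron exporter encoded by Slc40a1, and has it degraded, so that less iron leaves enterocytes, macrophages and hepatocytes. Its transcription is driven by BMP and SMAD signalling, with BMP6 from sinusoidal endothelial cells as a main ligand, and by IL-6 through STAT3. Transferrin carries iron in plasma and enters cells through transferrin receptor 1 (Tfrc), whose mRNA is held stable by the iron regulatory proteins when a cell lacks iron. Transferrin receptor 2 (Tfr2) serves hepatocytes mainly as a sensor of transferrin saturation. Ferritin, built of a heavy chain (Fth1) and a light chain (Ftl1), stores iron inside the cell.

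Total counts ranged from 14345819 to 26837227 per library. Levels are given in CPM, the count scaled to the TMM-normalized library size, with the SD over 3 rats. A log2 fold change comes from edgeR on the 6 libraries of a comparison, with its standard error (SE). The FDR is the Benjamini-Hochberg value over all genes tested. To be called, a gene needed a log2 fold change of 0.5 or more in either direction, together with an FDR no higher than 0.01. All 7 hepatocyte markers were detected in every group, with summed levels of 114591 to 142295 CPM in the control rats, 137730 to 184062 in the model rats and 140383 to 175899 in the DSS rats. Albumin (Alb) makes up most of that sum, and single markers differed in either direction. Cps1, a urea cycle enzyme, was lower in model than in control rats without overlap (log2 fold change -0.76, FDR 0.123 with edgeR, 0.00454 with DESeq2). It was higher in DSS than in model rats without overlap (0.68, FDR 0.384 with edgeR). Tat, a tyrosine-degrading enzyme, was lower in model than in control rats without overlap (-0.79, FDR 0.318 with edgeR). Apob, an apolipoprotein, was higher than in control rats without overlap in model (0.42, FDR 0.323 with edgeR) and DSS rats (0.35, FDR 0.182). Apoa1, another apolipoprotein, was higher in DSS than in control rats (0.81, FDR 0.0205 with edgeR, 5.27e-05 with DESeq2), as was Ttr (0.31, FDR 0.202 with edgeR). Model replicate 1 stood apart from the other libraries on the second principal component, at -59.2 where the others lay between -16.7 and 19.8. Without it the log2 fold change against control was 1.49 for Hamp and -1.04 for Tfrc. In a bulk sample, fewer cells of a type and less RNA per cell cannot be told apart.

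Compared with the control group, Hamp was higher and Tfrc was lower in both groups that drank fructose. These were the members with the widest differences. Hamp was 2.51-fold higher in model than in control rats and 2.87-fold higher in DSS than in control rats, and Tfrc was 2.17-fold and 3.44-fold lower. Neither gene passed the FDR of 0.01 with edgeR, and both passed it with DESeq2 in both comparisons. Between the DSS and model groups, 0 of the 8 members tested were called by edgeR (0.136% of all genes) or DESeq2 (1.18%). An unadjusted p under 0.05 was reached by 0 of them (8.02% of all genes).

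The control rats had Hamp (ENSRNOG00000021029) at 183, 115 and 151 CPM. In the model rats it was at 277, 376 and 475 CPM. In the DSS rats it was at 531, 254 and 508 CPM. All 6 rats on fructose were above all 3 control rats, and DSS replicate 2 lay below every model rat while the other DSS rats lay above them. Mean levels of control, model and DSS rats were 149.7 ± 34.1, 376 ± 98.9 and 431 ± 154 CPM (SD, n = 3). For model against control, Hamp had a log2 fold change of 1.33 (SE 0.237, 95% interval 0.78 to 1.87, FDR 0.0598 with edgeR). For DSS against control it was 1.52 (SE 0.309, interval 0.79 to 2.25, FDR 0.0343). DESeq2 gave an FDR of 1.92e-05 and 5.41e-07. Against the model group, Hamp in the DSS group had a log2 fold change of 0.20, with an interval from -0.51 to 0.91. With 1 rat left out, the value ranged from 0.012 to 0.47.

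Tfrc (ENSRNOG00000001766) showed the opposite order. Among control rats it was at 115, 189 and 129 CPM. Levels in model rats were 57.6, 67.6 and 74.3 CPM. Levels in DSS rats were 23.2, 53.1 and 50.03 CPM. No 2 of the groups overlapped: each DSS rat was below each model rat, and each model rat was below each control rat. Mean levels were 144 ± 39.3, 66.5 ± 8.43 and 42.1 ± 16.4 CPM. The fitted log2 fold change was -1.12 for model against control (SE 0.207, interval -1.60 to -0.65, FDR 0.0653 with edgeR) and -1.78 for DSS against control (SE 0.361, interval -2.66 to -0.90, FDR 0.0425). The FDR of DESeq2 was 0.000174 and 5.78e-08. Between the DSS and model groups it was -0.65 (SE 0.288, FDR 0.629), and its interval of -1.32 to 0.01 reached 0. DSS replicate 1 had the lowest Tfrc and the highest Hamp of the 9 rats, and without it that log2 fold change became -0.37.

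Tfr2 (ENSRNOG00000001407) did not follow Tfrc. It was at 281, 282 and 305 CPM in the control rats. For the model rats it was 304, 289 and 313 CPM. For the DSS rats it was 384, 308 and 337 CPM. The model rats overlapped the control rats, and the DSS rats lay above the control rats and overlapped the model rats. Model against control gave a log2 fold change of 0.059, and its interval of -0.23 to 0.35 does not reach the size of that of Tfrc. With library size alone as the scaling, which shifts the median of all genes by -0.14, it was -0.085, so Tfr2 moved as that median did. DSS against control gave 0.24 (SE 0.123, FDR 0.274 with edgeR) and DSS against model gave 0.19. Without DSS replicate 1 these became 0.15 and 0.090.

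**Figure D1:**
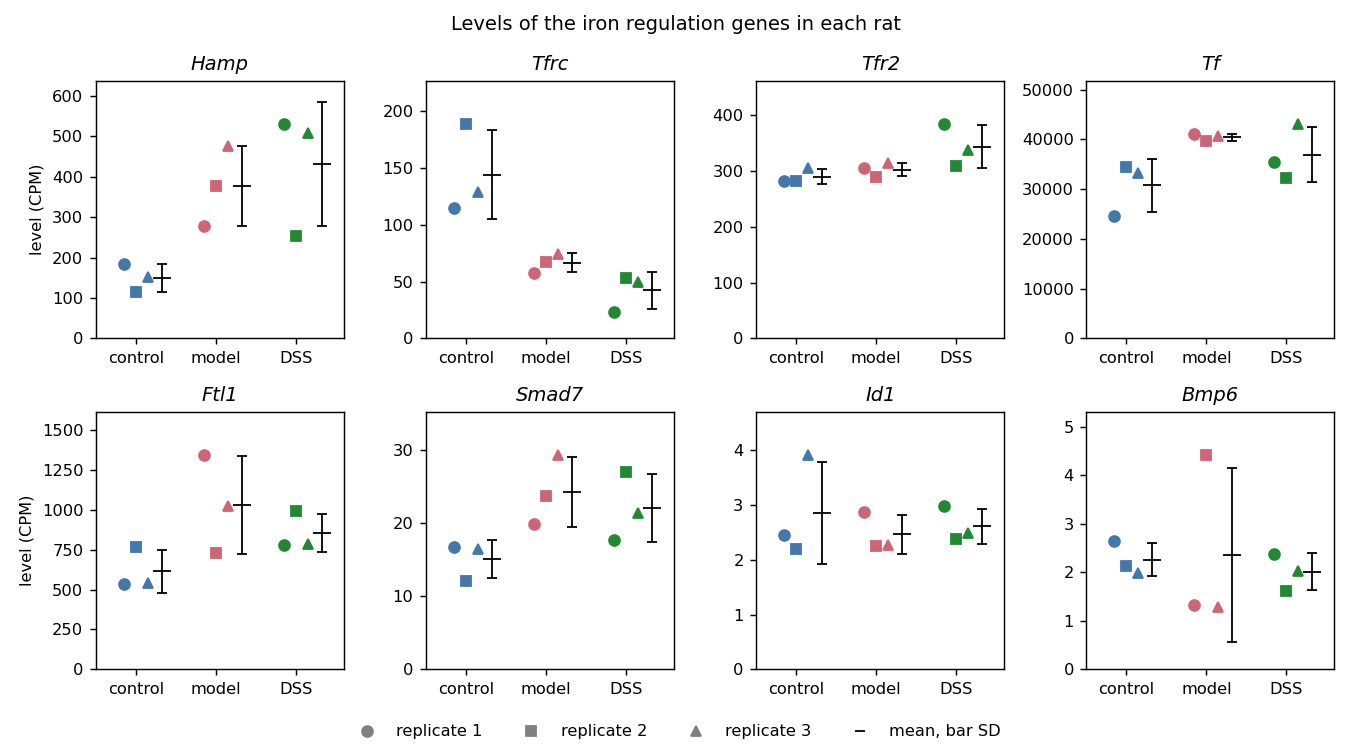
Level in CPM (vertical axis) of the 8 members that passed the filter on low counts, in each rat of the control, model and DSS groups. Symbols mark the replicate number of the label, and the black bar is the mean with its SD over 3 rats; Hamp is higher and Tfrc lower in all 6 fructose rats than in the control rats, while Tfr2, Id1 and Bmp6 of the model and control rats overlap.

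Transferrin itself was one of the most abundant transcripts of these livers. In each of the 9 libraries Tf (ENSRNOG00000030625) ranked 2nd among all genes by count and took between 2.79% and 4.14% of the counts. It was at 24596, 34498 and 33178 CPM in the control rats. In model rats it was at 41032, 39641 and 40593 CPM. In DSS rats it was at 35375, 32313 and 43116 CPM. The model rats lay above the control rats with a coefficient of variation of 1.76%, and the DSS rats overlapped both groups. Tf had a log2 fold change of 0.39 for model against control (SE 0.193, interval -0.05 to 0.83, FDR 0.442 with edgeR), -0.13 for DSS against model and 0.26 for DSS against control, and it was not called by edgeR or DESeq2 in any of them. Without control replicate 1 the values of model and DSS rats against control became 0.25 and 0.12, without DSS replicate 3 that for DSS against control became 0.15, and DSS against model ranged from -0.24 without DSS replicate 3 to -0.038 without DSS replicate 2.

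Of the ferritin members, Ftl1 had a row. Ftl1 (ENSRNOG00000020843) was at 532, 767 and 543 CPM in the control rats. Model rats had 1347, 732 and 1024 CPM. DSS rats had 782, 994 and 788 CPM. Model replicate 2 lay among the control rats, and all DSS rats were above them, DSS replicates 1 and 3 by little. Its log2 fold change was 0.75 for model against control (SE 0.254, interval 0.17 to 1.33, FDR 0.261 with edgeR), -0.27 for DSS against model and 0.47 for DSS against control (SE 0.174, FDR 0.138). Without model replicate 1 the values for model against control and DSS against model became 0.50 and -0.036, and without model replicate 2 they became 0.94 and -0.47. With 1 rat left out, DSS against control ranged from 0.35 to 0.67. The table also lists 3 rows described as ferritin light chains. How reads of near-identical copies fall between them and Ftl1 was not tested, so the level of Ftl1 is uncertain. Rows of heavy chain-like copies, LOC108352322 and RGD1563378, held 0 to 19 and 0 to 5 counts per library and did not pass the filter. The copy LOC100360087, named after its values were seen, was at 11.6 ± 1.22, 27.2 ± 5.03 and 19.1 ± 3.38 CPM across control, model and DSS rats. For model against control its log2 fold change was 1.24 (FDR 0.0299 with edgeR, 3.16e-06 with DESeq2), and the model rats lay above the other rats. It was 0.71 for DSS against control (FDR 0.0308 with edgeR, 0.00466 with DESeq2) and -0.51 for DSS against model (FDR 0.553 with edgeR). For model against control, the other light chain copies had 0.64 (LOC100362384, FDR 0.336) and -0.088 (LOC100359668, FDR 0.941).

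Slc40a1 (ENSRNOG00000049995) had 1 count in control replicate 1 and 0 counts in each of the other 8 libraries. It did not pass the filter on low counts, and no fold change is given. A count of 0 allows up to 3 counts in a library, that is at most 0.199 CPM in the smallest one, for reads assigned to this row. Ferroportin is known to be made by Kupffer cells, the resident macrophages of the liver, and all 10 Kupffer cell markers with a row were detected, with a summed level of 350 to 946 CPM over the 9 libraries. Whether the gene model behind the row takes up the reads of ferroportin mRNA was not tested, so the zeros are not read as absence of that mRNA.

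The BMP arm was represented by its ligand Bmp6 and by Id1 and Smad7, which BMP signals induce. Smad7, an inhibitory SMAD that dampens hepcidin transcription, had higher levels in both fructose groups without being called by edgeR or DESeq2, and Id1 and Bmp6 overlapped between all groups. Smad7 (ENSRNOG00000018359) was at 16.7, 12.1 and 16.4 CPM in the control rats. Model rats had 19.8, 23.7 and 29.4 CPM. DSS rats had 17.7, 27.02 and 21.4 CPM. All 6 fructose rats were above all 3 control rats, by as little as 17.7 against 16.7 CPM. Smad7 had a log2 fold change of 0.68 for model against control (SE 0.198, interval 0.23 to 1.14, FDR 0.184 with edgeR) and 0.54 for DSS against control (SE 0.183, interval 0.13 to 0.95, FDR 0.109). For DSS against model it was -0.13, and from -0.31 to 0.030 with 1 rat left out.

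Id1 (ENSRNOG00000021750) rested on 35 to 67 counts per library. Its mean levels in control, model and DSS rats were 2.86 ± 0.930, 2.47 ± 0.359 and 2.62 ± 0.320 CPM. Control replicate 3 was highest at 3.92 CPM, and the log2 fold changes were -0.20, 0.084 and -0.12 for model against control, DSS against model and DSS against control. The intervals against control, from -0.92 to 0.52 for model and from -0.76 to 0.51 for DSS rats, do not reach the values of Hamp in the same comparisons, whereas the interval for DSS against model, from -0.52 to 0.68, holds that of Hamp.

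Bmp6 (ENSRNOG00000013717) had 21 to 69 counts per library. It was at 2.65, 2.14 and 1.99 CPM in the control rats. Model rats had 1.33, 4.43 and 1.29 CPM. DSS rats had 2.38, 1.62 and 2.03 CPM. Model replicate 2 was the highest of the 9 rats, and the other model rats were the lowest. For model against control the log2 fold change was 0.026, with an interval from -1.10 to 1.15 that spans a doubling in either direction. Without model replicate 2 it became -0.79 (SE 0.339, FDR 0.304 with edgeR), and that for DSS against model went from -0.20 to 0.61.

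Sinusoidal endothelial cells are the main source of BMP6 in the liver, and their markers were set beside Bmp6. The summed level of 9 endothelial markers was 453 CPM in model replicate 2, against 191 and 162 CPM in model replicates 1 and 3. In each group the rat with the highest Bmp6 also had the highest endothelial sum, at 401 CPM in control replicate 1 and 345 CPM in DSS replicate 1. The remaining rats did not keep that order in the control group, where Bmp6 was at 2.14 CPM with a sum of 230 and at 1.99 CPM with a sum of 282, nor in the DSS group, where it was at 1.62 CPM with a sum of 269 and at 2.03 CPM with a sum of 247. As a share of that sum, Bmp6 lay between 0.601% and 0.978% in all 9 rats. The endothelial sums were 230 to 401 CPM for control, 162 to 453 for model and 247 to 345 for DSS rats. Their part in the level of Bmp6 was not tested. The Kupffer cell sum was also highest in model replicate 2 among the model rats, at 731 CPM against 537 and 350 CPM.

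**Figure D2:**
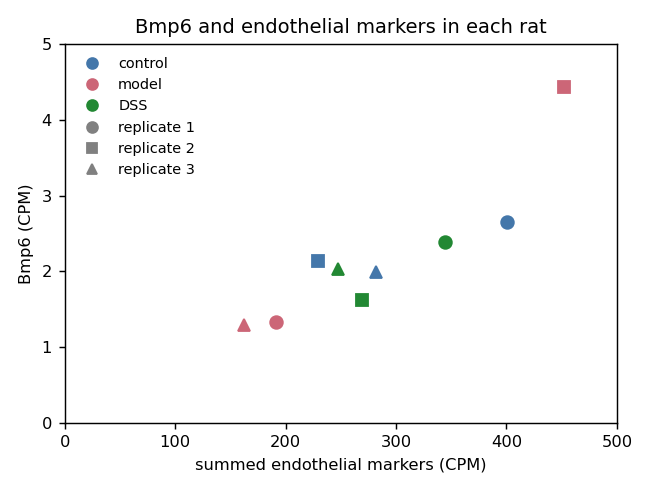
Bmp6 (vertical axis, CPM) against the summed level of 9 sinusoidal endothelial markers (horizontal axis, CPM), 1 point for each of the 9 rats, with colour for the group and symbol for the replicate number. Model replicate 2 stands at the upper right (4.43 and 453 CPM) and model replicates 1 and 3 at the lower left.

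Blood left in the liver was read from red cell markers, since young red cells carry much Tfrc. The summed level of the 6 such markers with a row was 439 to 1186 CPM in the control rats, 393 to 609 in the model rats and 359 to 728 in the DSS rats. The groups overlapped in this sum, which is made up almost wholly of the globin genes Hba-a1, Hba-a2 and Hbb. Of the 6 markers, 5 overlapped between the groups in every comparison. Slc4a1, the anion exchanger of the red cell membrane, with 9 to 53 counts per library, was lower without overlap in both fructose groups, the direction of Tfrc. It was at 2.16 ± 0.0924, 1.17 ± 0.109 and 1.18 ± 0.670 CPM in control, model and DSS rats, with log2 fold changes against control of -0.88 in model (SE 0.288, FDR 0.250 with edgeR) and -0.86 in DSS rats (SE 0.413, FDR 0.236). The part of red cells in the level of Tfrc was not tested.

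Over the members, the counts of calls stood as follows. The members were chosen with earlier results of these data known, so the comparison with all genes is a description only. Of the 9 members with a row, 8 passed the filter. Compared with the control group, 0 of 8 were called in the model group by edgeR, where 0.0801% of all genes tested were called, and 0 at an FDR of 0.05 (0.601% of all genes). With DESeq2, Hamp and Tfrc were called (2.05% of all genes). At an unadjusted p under 0.05 there were 4 of 8 (13.2% of all genes): Hamp, Ftl1 and Smad7 higher and Tfrc lower. The rats of the 2 groups did not overlap in 4 members, Hamp, Tf, Smad7 and Tfrc (21.1% of all genes). The median absolute log2 fold change of the members was 0.54, and that of all genes was 0.22.

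In the DSS group against control, 0 of 8 were called by edgeR (1.48% of all genes), and Hamp and Tfrc passed at an FDR of 0.05 (6.36%) and with DESeq2 (6.21%). At an unadjusted p under 0.05 there were 4 of 8 (24.3%), the same genes as in the model group. Both comparisons share the 3 control libraries. The groups did not overlap in 5 members (30% of all genes), namely Hamp, Tfr2, Ftl1 and Smad7 higher and Tfrc lower. The median absolute log2 fold change was 0.36, against 0.24 for all genes.

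Between the DSS and model groups, 0 of 8 were called by edgeR at an FDR of 0.01 (0.136% of all genes) or 0.05 (0.456%), 0 with DESeq2 (1.18%) and 0 had an unadjusted p under 0.05 (8.02%). Only Tfrc had groups that did not overlap (13.9%). The members' median absolute log2 fold change of 0.19 was close to the 0.18 of all genes.

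**Figure D3:**
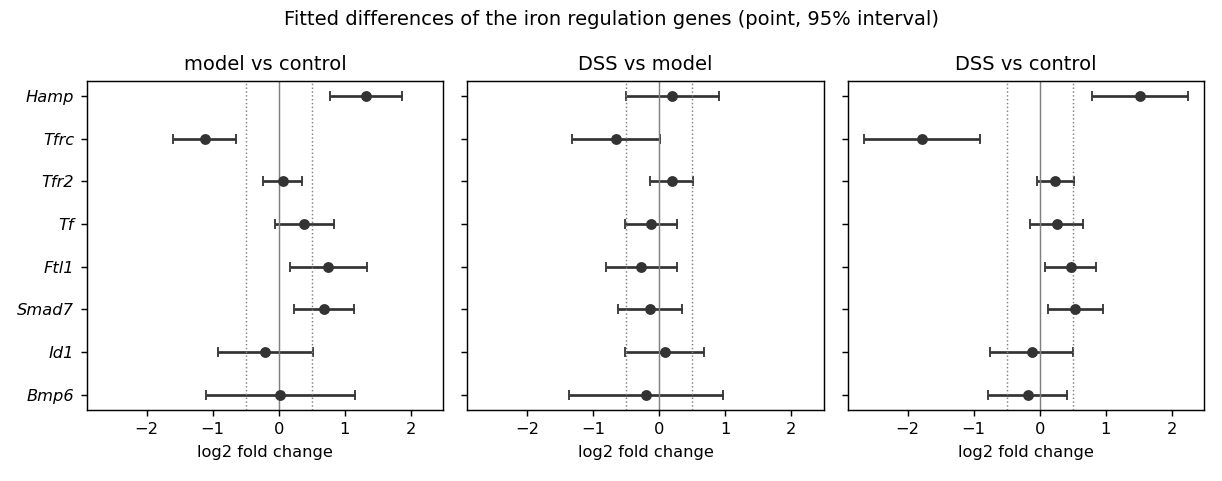
Log2 fold change with its 95% interval (horizontal axis) of the 8 members tested by edgeR in the 3 comparisons; dotted lines mark the minimum of 0.5 in either direction. In both comparisons with the control group the intervals of Hamp and Tfrc lie beyond the dotted lines on opposite sides, and between the DSS and model groups the interval of every member includes 0.

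A wider list of 71 symbols of iron and heme handling, of which 65 were matched and 62 tested, set the members in their pathway. In the DSS group against control, Steap3 rose and Alas1 fell, 2 of 62 genes called by edgeR (1.48% of all genes). With DESeq2, 8 of 62 were called (6.21% of all genes), with Steap3, Cp, Slc39a8, Atoh8, Hpx, Cybrd1 and Furin higher and Alas1 lower, and 19 of 62 had an unadjusted p under 0.05 (24.3%). In the model group 0 of 62 were called by edgeR (0.0801%), DESeq2 called 2 (2.05%), the same Steap3 and Alas1, and 9 had an unadjusted p under 0.05, a share near the 13.2% of all genes. Between the DSS and model groups 0 were called by edgeR (0.136% of all genes) or DESeq2 (1.18%), and 9 had an unadjusted p under 0.05 (8.02%). The median log2 fold changes of the list were 0.10 for model against control, 0.11 for DSS against model and 0.10 for DSS against control, where the medians of all genes were 0.00, 0.00 and -0.01.

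On the uptake side, Steap3 encodes the reductase that turns transferrin iron into its ferrous form in the endosome. It was at 11.5, 17.5 and 12.8 CPM in the control rats. The model rats were at 32.7, 25.3 and 48.3 CPM. The DSS rats were at 36.7, 39.4 and 52.8 CPM. All 6 fructose rats were above the control rats, and the log2 fold change was 1.34 for model against control (SE 0.267, FDR 0.0844 with edgeR) and 1.62 for DSS against control (SE 0.197, FDR 0.00321). Without control replicate 1 or control replicate 3 the latter FDR became 0.0140 and 0.0154. Slc39a8, a transporter of zinc, manganese and ferrous iron, had log2 fold changes against control of 0.60 in model (FDR 0.116) and 0.50 in DSS rats (FDR 0.0245, 0.00381 with DESeq2), with levels of 48.3 ± 2.77, 73.4 ± 8.73 and 68.8 ± 5.97 CPM in control, model and DSS rats. Cybrd1, a ferric reductase, was at 4.71 ± 0.0661 CPM in DSS rats against 2.40 ± 0.282 CPM in control rats (log2 fold change 0.96, FDR 0.0256 with edgeR, 0.00666 with DESeq2), and the model rats were spread from 1.46 to 4.04 CPM.

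Alas1 encodes the first and rate-limiting enzyme of heme synthesis in the liver. It was at 220.5, 211 and 397 CPM in the control rats. The model rats were at 100.5, 114 and 111 CPM. The DSS rats were at 77.3, 80.4 and 65.6 CPM. As for Tfrc, the groups were fully separated in the order control, model, DSS. Alas1 had a log2 fold change of -1.35 for model against control (SE 0.248, FDR 0.0644 with edgeR), -0.54 for DSS against model (SE 0.136, FDR 0.256) and -1.90 for DSS against control (SE 0.256, FDR 0.00783). That call was lost when any rat other than control replicate 3 was left out, with an FDR of up to 0.0378, with the replicate number as a block (0.0297) and with no filter on low counts (0.0128). Of the 15 genes of mitochondrial iron and heme tested, Alas1 was the only one called by edgeR or DESeq2, where 1.48% and 6.21% of all genes were called for DSS against control.

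Among plasma proteins, Cp, the ferroxidase ceruloplasmin that helps load iron onto transferrin, was at 1675 ± 124, 2020 ± 23.1 and 2590 ± 49.6 CPM, with the rats of the 3 groups fully apart. Ceruloplasmin had a log2 fold change of 0.62 for DSS against control (SE 0.12, FDR 0.0186 with edgeR, 4.77e-06 with DESeq2) and 0.36 for DSS against model (FDR 0.549). Hpx, the heme scavenger hemopexin, was at 4682 ± 138, 7530 ± 2574 and 7047 ± 868 CPM, with a log2 fold change of 0.58 for DSS against control (FDR 0.0333 with edgeR, 0.000231 with DESeq2). For model against control the log2 fold change of Hpx was 0.68 with DESeq2 (FDR 0.0986). Model replicate 1 held the highest level of Hpx, 10474 CPM, and without it edgeR gave 0.36 for model against control. Hp, the other plasma scavenger listed, was at 7306 ± 762, 11042 ± 2826 and 9436 ± 1772 CPM. Its model rats lay above the control rats, and its DSS rats overlapped both. Pcbp2, a chaperone that delivers iron to ferritin, had a log2 fold change of 0.39 for DSS against control (FDR 0.0428 with edgeR).

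Upstream of hepcidin, 0 of 10 BMP ligands, receptors and modulators were called by edgeR or DESeq2 in any comparison. Of all genes, edgeR called 0.0801% for model against control, 0.136% for DSS against model and 1.48% for DSS against control. DESeq2 called 2.05%, 1.18% and 6.21%, and a count of 0 of 10 is near those shares. At an unadjusted p under 0.05 there were 0 for model against control (13.2% of all genes). There were 0 for DSS against model (8.02%) and 2 for DSS against control (24.3%). Of 8 SMAD transducers and BMP targets, Atoh8, a transcription factor induced by BMP signals, was at 17.0 ± 1.35, 22.8 ± 5.52 and 26.0 ± 2.32 CPM, with a log2 fold change of 0.61 for DSS against control (FDR 0.0216 with edgeR, 0.00229 with DESeq2). Bambi, a decoy receptor of the TGF-β family, had a log2 fold change of 0.83 for model against control (SE 0.177, FDR 0.101), at 9.52 ± 0.276 CPM against 5.33 ± 0.597 CPM. The BMP target Id2, named after its values were seen, lay the other way in DSS rats, at 57.1 ± 14.7 CPM against 92.2 ± 15.8 in control and 90.7 ± 25.5 in model rats. Its log2 fold change was -0.70 for DSS against control (SE 0.198, FDR 0.0743 with edgeR) without overlap of the groups, and -0.66 for DSS against model (FDR 0.574). Id3, named likewise, was at 23.9 ± 2.27, 30.1 ± 3.16 and 35.8 ± 9.64 CPM. Its model rats lay above the control rats, and its DSS rats overlapped both. Without overlap, 3 of the 8 were higher and 0 lower for model against control (21.1% of all genes). At an unadjusted p under 0.05 there was 1 for model against control (13.2%) and 1 for DSS against model (8.02%). There were 4 for DSS against control (24.3%), 1 of them lower. Of the 6 genes of the IL-6 and STAT3 arm, 0 were called by edgeR or DESeq2 in any comparison. Of all genes, edgeR called at most 1.48% and DESeq2 at most 6.21%, and a count of 0 of 6 is near those shares. In each comparison with the control group 1 had an unadjusted p under 0.05, where 13.2% (model) and 24.3% (DSS) of all genes had one. Log2 fold changes of the arm ran from -0.56 to 2.09 for model against control (lowest FDR 0.319 with edgeR). Socs3 was at 2.92 ± 1.05, 12.8 ± 17.3 and 5.33 ± 4.74 CPM, with model rats spread from 1.85 to 32.7 CPM. Creb3l3 was at 318 ± 5.37, 434 ± 85.7 and 393 ± 54.4 CPM. It alone was higher without overlap in model (21.1% of all genes) and DSS rats (30%) than in control rats.

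Hjv, the BMP coreceptor hemojuvelin, was highest in the model group. It was at 103 ± 26.3, 158 ± 12.9 and 97.7 ± 27.3 CPM in control, model and DSS rats, and the model rats lay above all rats of the other groups. The log2 fold changes were 0.61 for model against control (FDR 0.225 with edgeR) and -0.69 for DSS against model (FDR 0.368), and both rest on the same 3 model libraries. Furin, the protease that processes prohepcidin, had a log2 fold change of 0.50 for DSS against control (FDR 0.051 with edgeR, 0.00561 with DESeq2). Neo1, a partner of hemojuvelin, had one of 0.51 for DSS against model (FDR 0.486). Tmprss6 was at 480 ± 4.88, 586 ± 67.2 and 496 ± 46.6 CPM. Its model rats lay above the control rats and overlapped the DSS rats. Of the 5 coreceptor and iron sensor genes tested, edgeR called 0 in any comparison (at most 1.48% of all genes). DESeq2 called Furin alone, for DSS against control (6.21%). At an unadjusted p under 0.05 there was 1 for model against control (13.2%). There were 2 each for DSS against model (8.02%) and DSS against control (24.3%). Of the genes of the iron regulatory proteins and their regulator Fbxl5, 0 of 3 were called by edgeR or DESeq2 in any comparison. Of all genes, edgeR called at most 1.48% and DESeq2 at most 6.21%, and a count of 0 of 3 is near those shares. For DSS against model 1 of them had an unadjusted p under 0.05, where 8.02% of all genes had one.

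**Figure D4:**
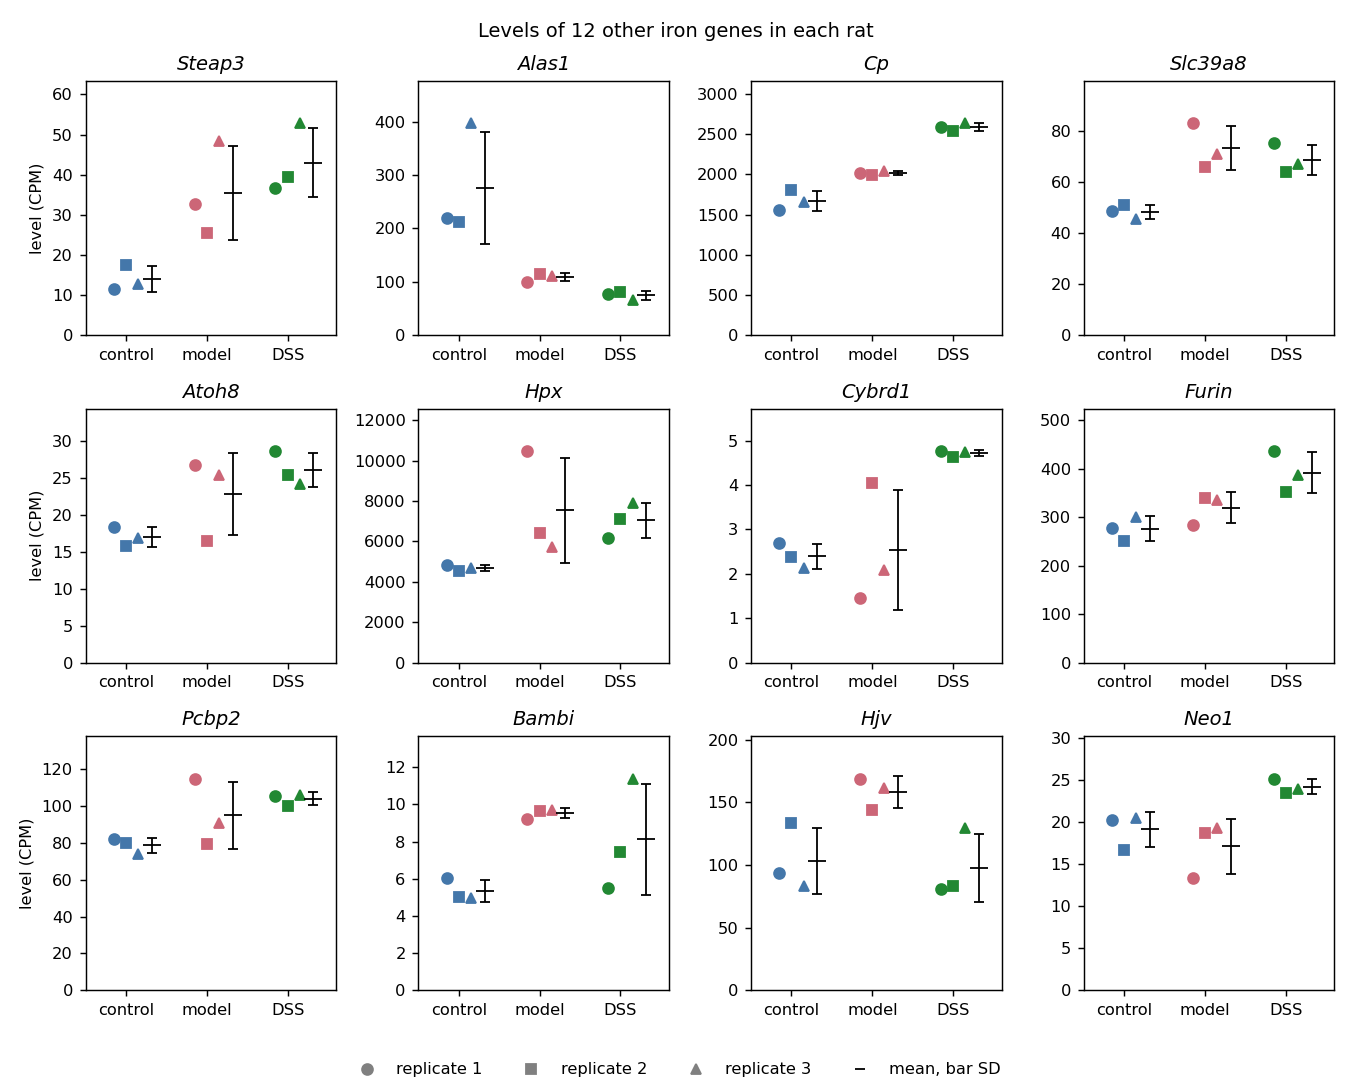
Level in CPM (vertical axis) of the 12 other iron genes named by rule, in each rat of the control, model and DSS groups, with the mean and SD as a black bar. Steap3 is higher and Alas1 lower in all 6 fructose rats than in the control rats, Cp separates all 3 groups, and Hjv is highest in the model rats.

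Across the 9 libraries, the genes closest to Hamp in log2 CPM among 10101 others with a mean count of at least 50 were Cdkn1b, Ilk, Aph1a, Zfp358 and Zfyve21, with Pearson's r between 0.945 and 0.950. Among those closest to Tfrc were Gripap1, Wdr36, Miga2 and Zfp709, with r between 0.958 and 0.979. The libraries fall into the 3 groups, which all these points share, so the values describe a common order of groups as much as of rats.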

How the data were processed

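Liver RNA was enriched for poly(A), fragmented and sequenced on an Illumina platform. The authors aligned reads with HISAT2 and deposited raw counts per gene from HTSeq 0.6.1, which took exonic reads of either strand. The submitters' processing notes name the build Rnor_6.0. How reads of overlapping or near-identical genes were assigned was not tested. A table of assembled transcripts, of unstated unit, was not used. The mouse reference at hand was not used, and neither coordinates nor sequences are given.

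For each comparison its 6 libraries were fitted in R 4.3.3 with edgeR 4.0.16, using filterByExpr, TMM, robust glmQLFit and the two-sided glmQLFTest, and Benjamini-Hochberg adjustment over all genes. Standard errors were taken from the F statistic. DESeq2 1.42.0 was the main alternative. Thresholds follow the methods of the study. The labels number the libraries but do not name the animals, so p-values measure the spread between these libraries, which may in part be technical. Precision is limited by the spread between rats and, for Bmp6 and Id1, with under 70 counts per library, by counting error too. Slc40a1 failed the filter. Nfs1 had 2 rows, of which the more abundant was used.

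The members and lists were chosen with earlier results of these data known. The other iron genes named are those with an FDR of at most 0.05 or a DESeq2 call, and in each comparison up to 5 with the lowest unadjusted p under 0.05 and no overlap of groups. The ferritin copies, Cps1, Tat, Apob, Apoa1, Ttr, Slc4a1, Id2, Id3, Socs3, Creb3l3, Tmprss6 and Hp were added after their values were seen. Of the genes named by likeness to Tfrc, 1 is not reported here.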

Additional observations from a re-analysis of the deposited data

How the results depend on the processing

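Of 312 refitted log2 fold changes of the 8 members, 291 kept their direction and side of the threshold, 9 came to pass it and 12 changed sign. No change of sign concerned Hamp, Tfrc, Tf or Ftl1. The members called in the model group went from 0 to 2 with DESeq2 and with no filter on low counts, and in the DSS group against control from 0 to 2 with DESeq2, at an FDR of 0.05 and with the replicate block, and ranged from 0 to 1 with 1 rat left out, the 1 being Hamp without DSS replicate 2. With 1 rat left out, the FDR of Hamp in the model group ranged from 0.0311 to 0.199 and that of Tfrc from 0.0996 to 0.148. The other iron genes called in the model group went from 0 to 2 with DESeq2. In the DSS group against control they went from 2 to 8 with DESeq2, to 7 at an FDR of 0.05, to 3 with no filter (Steap3, Cp and Atoh8, without Alas1) and to 1 with the replicate block, and ranged from 0 to 1 with 1 rat left out. No rat could be left out with both Steap3 and Alas1 still called. Library size alone, which shifts the median of all genes by -0.14 in either group against control, turned Tfr2 to -0.085 and Bmp6 to -0.079 in the model group. The replicate block turned Bmp6 to -0.18 in the model group and to 0.0090 in the DSS group against model. With 1 rat left out, Bmp6 ranged from -0.79 to 0.31 in the model group and from -0.49 to 0.61 in the DSS group against model, Id1 from -0.35 to 0.093, from -0.027 to 0.21 and from -0.27 to 0.17 in the 3 comparisons, and Smad7 from -0.31 to 0.030 in the DSS group against model. The cause of these changes was not tested. Same-numbered rats did not deviate together (r from -0.23 to 0.06 over 2000 genes), so the numbers were not read as pairs. Over all genes, edgeR called 10, 17 and 187 genes in the model group, the DSS group against model and the DSS group against control, no filter gave 71, 38 and 489, DESeq2 gave 256, 147 and 769, the replicate block 0, 7 and 104, and 1 fit of all 9 libraries 34, 20 and 116.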
